A study of Mus musculus with 28 samples.

Results

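AP-1 is a transcription factor made of 2 subunits, one of the Jun family (Jun, Junb, Jund) paired with another Jun, with a Fos protein (Fos, Fosl1, Fosl2) or with a related protein such as Atf3 or Batf3. The 8 genes listed here encode these subunits and were chosen by name, with earlier results of these data known. Of the 8, 7 were among the 13519 genes counted in mouse colon organoids, and Batf3 was not. The subunits belong to the basic leucine zipper proteins. MAP kinase signalling, which the BRAF kinase feeds, is known to raise the transcription of Fos genes and the activity and stability of their proteins, so the subunits are textbook readouts of that pathway in epithelium.

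The organoids were grown from the colon of 7 C57BL/6N mice of 4 genotypes, and all of them, controls included, carried the Villin CreERT2 transgene and the APC flox/flox allele. AC organoids (1 donor) had no further allele, PAC organoids (2 donors) also had Trp53 LSL-R172H/+, BAC organoids (2 donors) had Braf floxV600E/+, and BPAC organoids (2 donors) had both. The Villin promoter drives Cre in intestinal epithelium, and 4-HT (3.5 µM for 24 hours, RNA 3 days later) activates it, so the EtOH controls were the unrecombined cells of the same culture. Each donor gave 2 cultures, called duplicate 1 and 2, which gives 14 cultures and 28 samples, 2 per treatment for AC and 4 for each other genotype. One 4-HT sample of donor Col291 carries no number in its label and was read as duplicate 1, because the other one is numbered as the second. The labels name a single donor for AC, where the study's methods speak of a pair in each genotype, and the labels were followed. Since AC came from 1 donor, and the duplicates of a donor share an animal, p values measure in part the spread between cultures of one mouse. The question was how the subunits' transcripts changed on recombination, and whether that change differed with the Braf or the Trp53 allele.

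Totals ran from 20577276 to 40068718 counts per sample, and the 4-HT samples of duplicate 1 with the Braf allele held 37438687 to 40068718, against 26594188 to 30306835 without it. Trp53 transcript rose with 4-HT by 0.74, 1.51, 0.97 and 1.84 (log2) in AC, PAC, BAC and BPAC, and its rise was 0.82 larger with the Trp53 allele (edgeR, adjusted p = 0.00367). The Braf V600E allele cannot be read from counts per gene. In PAC, the 4-HT samples of duplicate 1 stood apart: donor Col290 held 834 Xist and 1822 Y-linked counts, donor Col313 held 636 and 1543, and the pair was the closest of all samples (r = 0.997). Every other sample had at most 8 counts of one kind of transcript, Xist or Y-linked, and at least 509 of the other. Since each of these 2 libraries held transcripts of both kinds, they may not stand for separate donors or match their own EtOH cultures, and whether they are mixtures was not tested. The PAC changes, the Braf allele differences and the 4-HT level differences are therefore also given from a fit without both of these cultures, where PAC has 2 cultures. Epithelial markers were abundant throughout (Epcam 1512 to 3126 CPM, Krt8 5825 to 11760 CPM), while the 5 counted markers of fibroblasts, immune and endothelial cells summed to 8.18 to 21.2 CPM and 9 others on that list were not among the genes counted.

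Promoter sequences of 7 of the 8 genes are in the RefSeq table of GRCm38.p6, and Fosl1 is not in it. In windows from 250 bases before to 50 after the start, the AP-1 site TGACTCA and the related site TGACGTCA, searched on both strands, were in 0 of these 7, against 5.20% and 1.79% of all 32851 promoters. Letters within 1 mismatch of TGACGTCA were in 3 of the 7 (Jun, Fos and Atf3), against 12.5% of all. This looser search was added after the exact one. The windows of Jun, Fosl2 and Junb are shown because Jun and Fosl2 fell in BAC and BPAC and Junb passed no test. Capitals mark the letters within 1 mismatch. The Jun window is chr4:95052173-95052472 on the minus strand, with TGACATCA starting 45 bases before the start, and those of Fosl2 (chr5:32136222-32136521, plus strand) and Junb (chr8:84978699-84978998, minus strand) hold none.
Jun: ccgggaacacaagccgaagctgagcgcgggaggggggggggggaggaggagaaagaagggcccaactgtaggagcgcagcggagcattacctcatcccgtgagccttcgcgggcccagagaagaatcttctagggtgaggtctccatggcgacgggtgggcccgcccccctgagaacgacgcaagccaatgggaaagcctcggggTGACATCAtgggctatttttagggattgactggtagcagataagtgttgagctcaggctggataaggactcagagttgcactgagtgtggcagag
Fosl2: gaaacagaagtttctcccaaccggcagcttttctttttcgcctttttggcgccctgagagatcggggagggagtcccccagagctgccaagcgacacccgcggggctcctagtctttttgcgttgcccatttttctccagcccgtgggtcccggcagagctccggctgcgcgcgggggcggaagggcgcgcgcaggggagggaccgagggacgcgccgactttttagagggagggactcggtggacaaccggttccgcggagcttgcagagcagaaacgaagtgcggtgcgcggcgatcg
Junb: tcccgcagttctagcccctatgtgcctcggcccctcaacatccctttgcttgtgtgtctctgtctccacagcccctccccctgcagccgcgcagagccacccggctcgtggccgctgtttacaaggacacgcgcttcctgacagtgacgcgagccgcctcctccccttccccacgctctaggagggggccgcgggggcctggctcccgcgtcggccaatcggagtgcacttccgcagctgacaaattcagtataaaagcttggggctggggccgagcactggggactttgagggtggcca
No match in these windows says only that those letters were not there. The RefSeq start of Jund lies before the gene as annotated for the counts, and those of Fosl2 and Atf3 lie inside it, so these windows may not be the promoters in use.

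Per length, transcripts of Jund were the most abundant of the 7 genes in all 28 samples, and those of Junb came second, as CPM per kilobase of exon (RPKM). Jund is known as the steadily expressed Jun member of many tissues, while Jun and Junb are better known as genes induced by signals. In EtOH samples the median level was 268 RPKM for Jund, 100.3 for Junb, 51.7 for Fos, 48.5 for Jun, 10.9 for Atf3, 9.32 for Fosl2 and 7.52 for Fosl1. Fos and Jun did not differ beyond their spread in any EtOH group, and neither did Atf3, Fosl2 and Fosl1 as neighbours in the order. With 4-HT, Fosl1 and Jun overlapped in BAC and BPAC, Jund and Junb in BAC, Fos and Jun in PAC, and Atf3 and Fosl2 in all 4 genotypes. Fosl1, the Fos member that ERK signalling is known to raise, had the lowest median of the 7 in EtOH, but under 4-HT its medians of 12.2 RPKM without and 25.1 with the Braf allele lay above those of Fosl2 and Atf3.

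**Figure D1:**
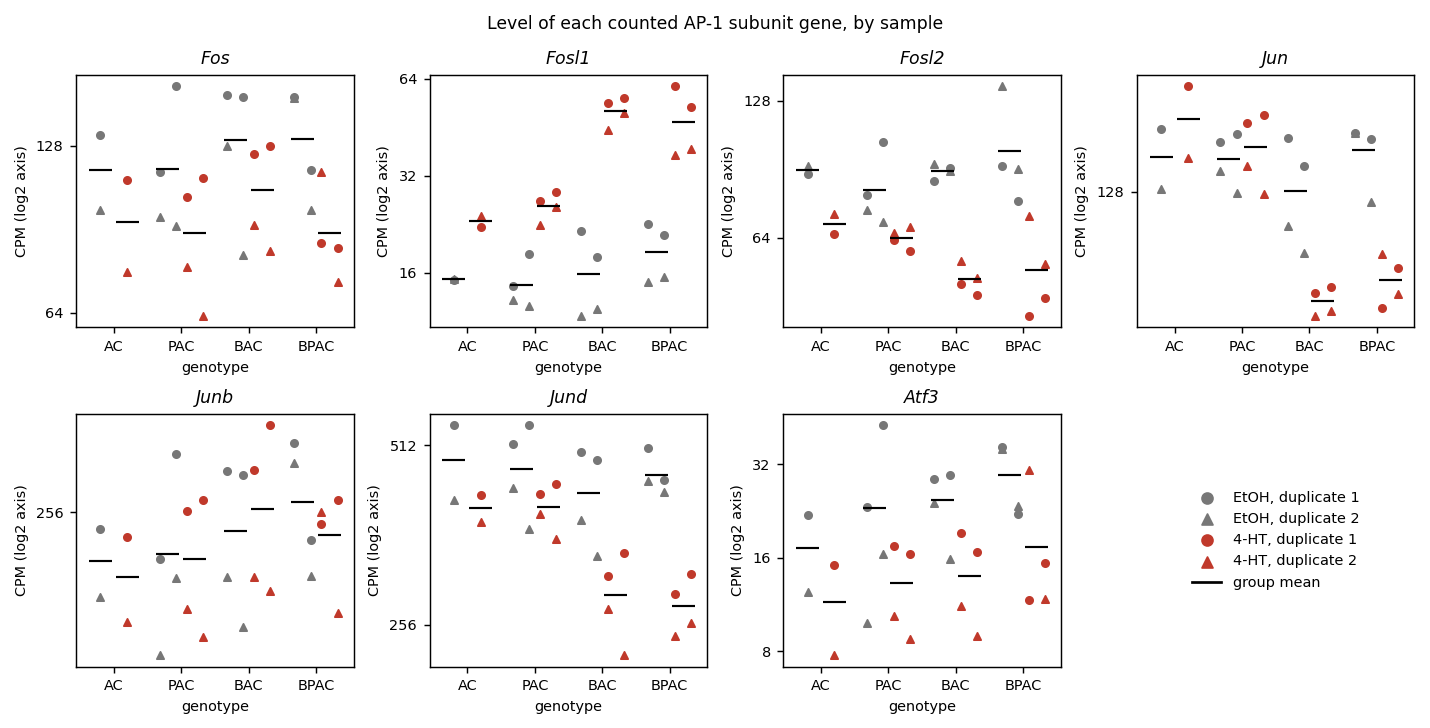
Each panel plots 1 subunit gene in CPM on a log2 axis, by genotype, with 28 samples (grey EtOH, red 4-HT, circles duplicate 1, triangles duplicate 2) and the group mean as a line. Fosl1 in the 8 red samples of BAC and BPAC sits between 37.0 and 60.7 CPM, above all others, and Jun in those samples sits between 69.3 and 94.2 CPM, below every other sample.

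Fosl1 rose with 4-HT in PAC, BAC and BPAC, and rose more in the organoids with the Braf allele. Its level in EtOH was 11.8 to 22.6 CPM (median 15.3, 14 samples). With 4-HT it was 22.2 and 24.1 CPM in AC and 26.8, 28.5, 22.5 and 25.5 CPM in PAC. In BAC it was 55.9, 53.6, 50.1 and 44.2 CPM, and in BPAC 60.7, 52.2, 37.0 and 38.6 CPM. No sample with the Braf allele fell to the level of a sample without it under 4-HT, and the change was above 0 in all 14 cultures.

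The fitted Fosl1 change was 0.82 ± 0.18 (log2, SE) in PAC (edgeR, adjusted p = 0.00122), 1.68 ± 0.18 for BAC organoids (adjusted p = 5.98e-08) and 1.35 ± 0.18 in BPAC (adjusted p = 1.04e-06). In AC it was 0.60 ± 0.26, adjusted p = 0.114, and with the culture as a block, which pairs the treatments of a culture, adjusted p = 0.00495. When each donor's duplicates were summed, the AC value was 0.56. That sum leaves AC with 1 sample per treatment, so it cannot decide the AC call. Without both PAC duplicate 1 cultures, the PAC call was lost (0.90, edgeR, adjusted p = 0.0495), and over all alternatives the PAC value lay between 0.76 and 1.04. The PAC call was also lost without culture Col290-1 or Col313-2, without donor Col290 or Col313, and with duplicate 2 alone.

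Jun, the classic partner of Fos, fell with 4-HT in both genotypes with the Braf allele and passed the test in neither genotype without it. In EtOH it stood between 94.7 and 175 CPM (median 155). With 4-HT it was 216 and 152 CPM in AC and 180, 187, 145 and 126 CPM in PAC. In BAC it was 79.7, 77.5, 71.1 and 69.3 CPM, and in BPAC 72.0, 87.9, 94.2 and 77.1 CPM. The 2 sets of 4-HT samples did not overlap, and the culture changes were below 0 in 8 of 8 cultures with the allele and above 0 in 5 of 6 without it.

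The fitted Jun change was −0.79 ± 0.17 (log2, SE) (edgeR, adjusted p = 0.00033) for BAC organoids and −0.93 ± 0.17 in BPAC (adjusted p = 4.71e-05). In AC it was 0.27 ± 0.23 (adjusted p = 0.472) and in PAC 0.08 ± 0.17 (adjusted p = 0.727), or 0.015 without both PAC duplicate 1 cultures. The BAC call was lost with duplicate 2 alone and without donor Col286, and the BPAC call without donor Col287, where the adjusted p reached 0.0337 and 0.0113. Jun and Jund have no intron in the annotation used here, so reads of unspliced and mature transcript cannot be told apart for these genes.

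Fosl2, a Fos member often linked to slower and longer responses than Fos, fell in the same genotypes. In EtOH it stood between 69.1 and 138 CPM (median 90.2). With 4-HT it was 59.8 to 72.1 CPM in the 6 samples without the Braf allele (median 65.3) and 43.1 to 71.3 CPM in the 8 with it (median 51.4). These ranges overlapped through the BPAC sample Col287-2, at 71.3 CPM. The change was −0.79 ± 0.15 for BAC organoids (log2, SE, edgeR, adjusted p = 0.000102) and −0.87 ± 0.15 in BPAC (adjusted p = 2.69e-05), against −0.39 ± 0.21 in AC (adjusted p = 0.213) and −0.35 ± 0.15 in PAC (adjusted p = 0.0706). The PAC value of Fosl2 was −0.10 without both PAC duplicate 1 cultures. Culture changes of Fosl2 were below 0 in every culture, with means of −0.35 without the Braf allele and −0.83 with it. Without donor Col291 the BAC call was lost (adjusted p = 0.0179).

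Jund fell in BAC and BPAC as well. It stood between 334 and 553 CPM in EtOH (median 446). With 4-HT its range was 357 to 441 CPM in the 6 samples without the Braf allele and 227 to 338 CPM in the 8 with it, so the 2 sets did not overlap. The change was −0.57 ± 0.14 for BAC organoids (log2, SE, edgeR, adjusted p = 0.00152) and −0.73 ± 0.14 in BPAC (adjusted p = 0.000112), against −0.27 ± 0.20 in AC (adjusted p = 0.383) and −0.21 ± 0.14 in PAC (adjusted p = 0.244). The PAC value of Jund was −0.10 without both PAC duplicate 1 cultures. Culture changes of Jund were below 0 in every culture, with means of −0.22 without the Braf allele and −0.65 with it. The BAC call was lost in 5 of 37 alternatives (library size alone, duplicate 2 alone, and without culture Col286-1, donor Col291 or donor Col286) and the BPAC call in 1 (without donor Col287).

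Junb, Fos and Atf3 passed the test in no genotype. Junb, the second Jun member by level, changed by −0.06, −0.02, 0.09 and −0.13 (log2) in AC, PAC, BAC and BPAC, each with an SE of 0.19 to 0.26. It stood at 171 to 311 CPM in EtOH, 180 to 265 CPM with 4-HT without the Braf allele and 193 to 327 CPM with it, and these ranges overlapped widely. Relative to library size alone the Junb change is above 0 in all 4 genotypes, so its sign depends on the scaling. The PAC change of Junb was −0.033 without both PAC duplicate 1 cultures.

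Fos, the immediate early gene after which the family is named, changed by −0.31, −0.39, −0.30 and −0.56 (log2, SE 0.23 to 0.33) in the same order. Atf3, a stress-induced partner of Jun, changed by −0.58, −0.80, −0.80 and −0.77 with SE of 0.38 to 0.54. Both were below 0 in 13 of 14 cultures. With the culture as a block, Fos passed in PAC (edgeR, adjusted p = 0.00274) and BPAC (adjusted p = 5.98e-05), and Atf3 in the genotypes with the Braf allele (adjusted p = 0.00217 in BAC, 0.00178 in BPAC). Without both PAC duplicate 1 cultures the PAC changes of Fos and Atf3 were −0.41 and −0.46, and with the block as well the PAC call of Fos was lost (edgeR, adjusted p = 0.0324). The block counts duplicates of a mouse as replicates. In donor sums none of these calls passed (edgeR, adjusted p = 0.125 and 0.0228 for Fos in PAC and BPAC, 0.0527 and 0.0313 for Atf3 in BAC and BPAC).

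**Figure D2:**
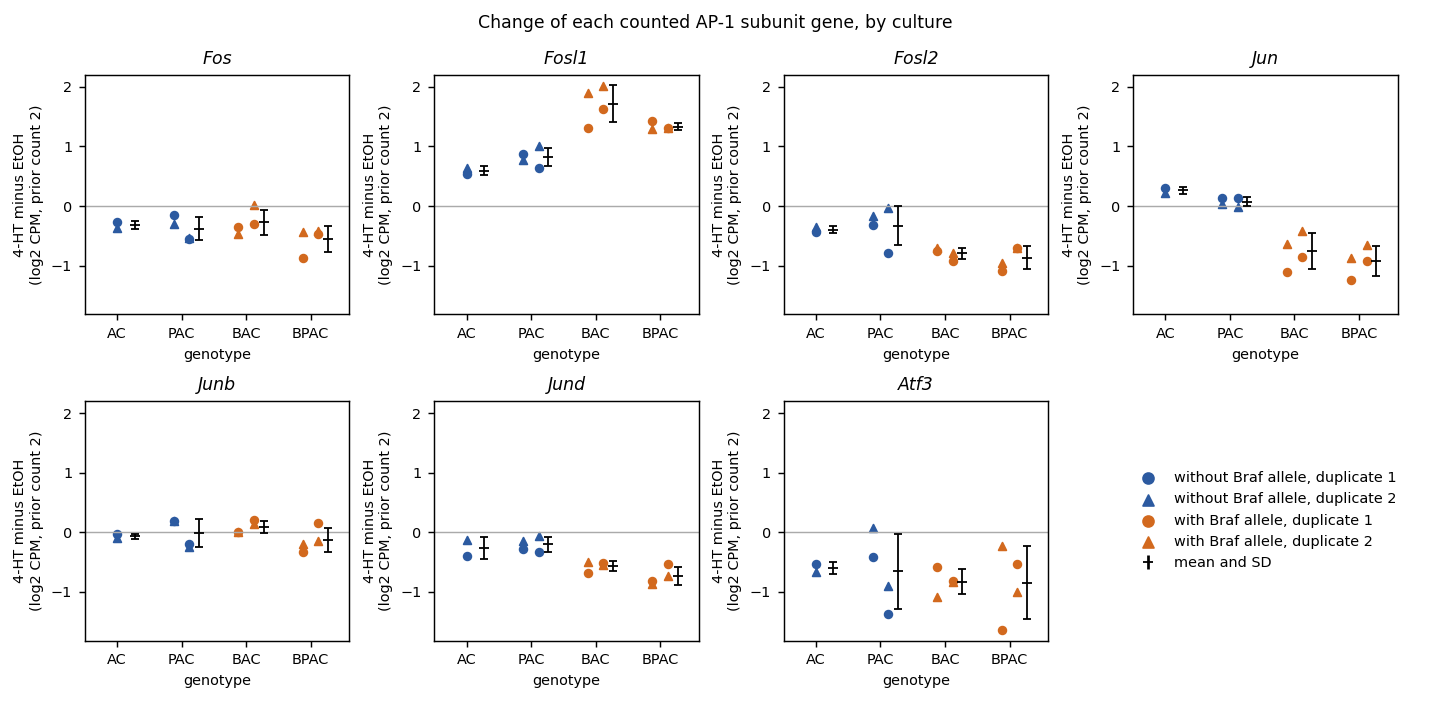
Each panel plots the 4-HT minus EtOH change of 1 subunit gene in log2 CPM (prior count 2) for the 14 cultures, blue without and orange with the Braf allele, circles duplicate 1 and triangles duplicate 2, with mean and SD of each genotype beside them. Fosl1 is above 0 and Fosl2 and Jund are below 0 in all cultures. The orange points of Jun are all below 0, and the Junb points lie on both sides of 0.

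Counted over the 7 genes, 0, 1, 4 and 4 passed in the 4 genotypes (AC, PAC, BAC, BPAC), and the same 4 genes (Fosl1 up, Jun, Fosl2 and Jund down) made up the last 2 counts. The shares of all genes that passed were 7.25%, 23.4%, 41.9% and 45.0% in the same order, so 4 of 7 is close to the background in BAC and BPAC. The median change of the 7 was −0.27, −0.21, −0.57 and −0.73 (log2) in AC, PAC, BAC and BPAC. Over all genes the median was 0.01, −0.03, −0.04 and −0.04 in the same order. At an unadjusted p under 0.05 in edgeR, 1 subunit gene passed in AC, 3 in PAC, and 5 in each of BAC and BPAC. Of all 13519 genes, 4165, 6171, 8037 and 8231 passed at that p in the same order. With the culture as a block the counts were 1, 2, 5 and 6, and in donor sums 1, 4 and 4 for PAC, BAC and BPAC. The shares of all genes above belong to the main fit, and those of the block and donor-sum fits are not given here.

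The change itself differed with the Braf allele for Fosl1 and Jun. The Fosl1 rise was 0.81 ± 0.20 (log2, SE) larger with the Braf allele than without it (edgeR, adjusted p = 0.00864). For Jun the difference was −1.04 ± 0.19 (adjusted p = 0.000592). Over all genes 6.61% passed this comparison, against 2 of the 7 subunits.

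The Jun difference was lost in 1 of 36 alternatives, duplicate 2 alone, where it was −0.77 with an adjusted p of 0.0693, and in duplicate 1 alone it was −1.24 (adjusted p = 0.000234). Without both PAC duplicate 1 cultures it was −1.0 (adjusted p = 0.00208). The Fosl1 difference was close to the threshold and was lost in 23 of 36 alternatives, with values between 0.70 and 0.88 throughout. Leaving out a single culture or donor lost it in 19 of 21 runs, with adjusted p up to 0.0638, and without both PAC duplicate 1 cultures it was 0.77 (adjusted p = 0.0274). Within duplicate 1 it was 0.78 (adjusted p = 0.00868) and within duplicate 2 it was 0.86 (adjusted p = 0.0246). With the culture as a block both differences passed (edgeR, adjusted p = 9.17e-05 for Fosl1 and 1.51e-05 for Jun).

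The differences for Fosl2 and Jund were −0.46 ± 0.17 and −0.41 ± 0.16 (log2, SE) and did not pass (edgeR, adjusted p = 0.064 and 0.0828). Both passed with the culture as a block (adjusted p = 0.00558 and 0.00159), which took the count from 2 to 4. In donor sums they did not pass (edgeR, adjusted p = 0.0605 and 0.0272) and the count was 2. Without both PAC duplicate 1 cultures they were −0.58 and −0.46 (edgeR, adjusted p = 0.0331 and 0.0671), and with the block as well both passed (adjusted p = 0.000483 and 0.00168). For Junb, Fos and Atf3 the differences were 0.02 ± 0.21, −0.08 ± 0.26 and −0.10 ± 0.43, with adjusted p of 0.962, 0.875 and 0.91, and without both PAC duplicate 1 cultures 0.028, −0.067 and −0.27. The culture changes of Fosl1, Jun and Jund did not overlap between the 8 cultures with and the 6 without the Braf allele, while 9.36% of all genes had changes that did not overlap.

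**Figure D3:**
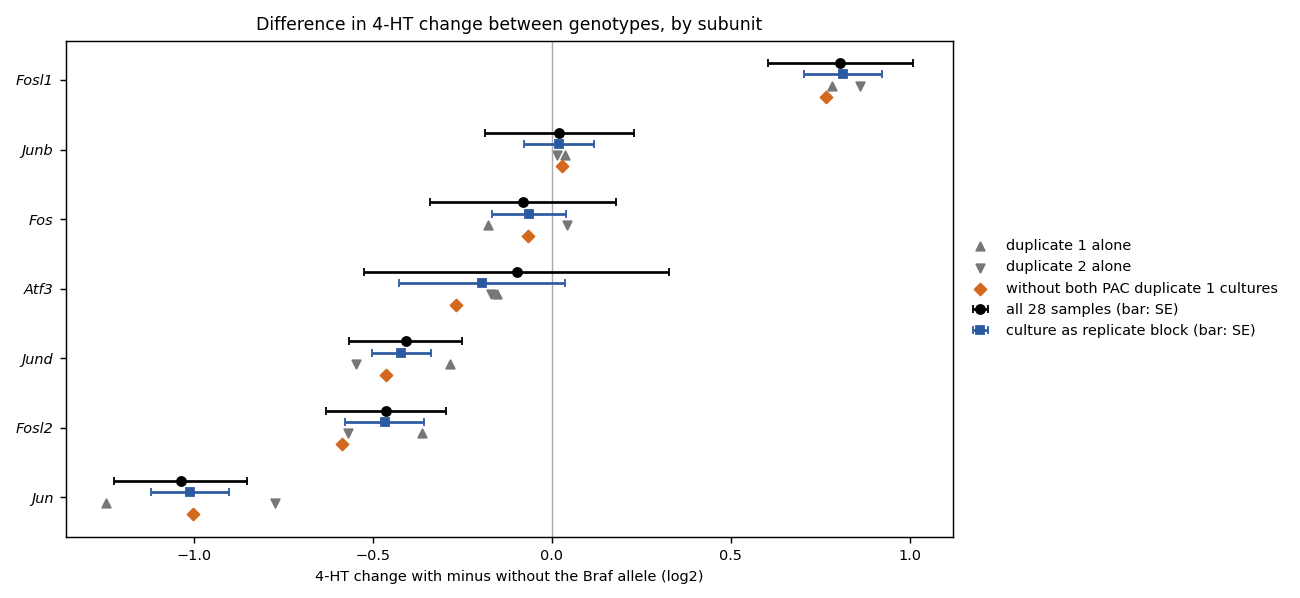
The 4-HT change with minus without the Braf allele is plotted in log2 for each of the 7 genes, over all 28 samples and with the culture as a block (bars are SE), and as a value alone within each duplicate and without both PAC duplicate 1 cultures. Fosl1 lies at 0.77 or above in every setting drawn, Jun at −0.77 or below, and Junb beside 0.

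The levels under 4-HT differed with the Braf allele for 3 subunits. Fosl1 was 1.00 ± 0.15 (log2, SE) higher with the Braf allele (edgeR, adjusted p = 8.78e-06), and the differences for Jun and Jund were −1.13 ± 0.13 and −0.52 ± 0.11 (adjusted p = 4.15e-07 and 0.000548). These 3 calls held in 34 of 34 alternatives. Of all genes, 30.2% passed this comparison, against 3 of 7 here, and 21.1% had 4-HT levels that did not overlap between the 8 samples with and the 6 without the allele. The same 3 subunits did not overlap. The Fosl2 difference of −0.32 ± 0.12 did not pass (edgeR, adjusted p = 0.0292). Without both PAC duplicate 1 cultures the differences of Fosl1, Jun, Jund and Fosl2 were 1.06, −1.01, −0.47 and −0.35, and the first 3 passed (edgeR, adjusted p = 4.25e-05, 8.75e-06 and 0.00277).

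Before recombination, no subunit passed for the Braf allele in EtOH, where 0.0296% of all genes did, and the differences ran from −0.11 to 0.43 (log2). None passed for the Trp53 allele in EtOH (0.0592% of all genes), in the 4-HT level (0.0444%) or in the 4-HT change (0.0148%), with change differences of −0.17 to −0.02. In these 4 comparisons 0 of the 7 had an unadjusted p under 0.05 in edgeR, and 0 passed in limma-voom or DESeq2.

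The make-up of the summed subunit transcripts, per length, also differed between the groups. Jund held 48.3 to 59.4% of the summed RPKM in EtOH, 51.0 to 56.0% with 4-HT without the Braf allele and 39.0 to 47.8% with it. Fosl1 held 1.30 to 2.06%, 2.20 to 3.28% and 4.84 to 7.89% in the same order. For Jun the shares were 7.75 to 10.4%, 10.4 to 13.6% and 5.39 to 7.85%. The 4-HT samples with the Braf allele stood apart from the other 4-HT samples in all 3 shares.

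Junb held 25.9 to 30.6% of the sum in 4-HT samples with the Braf allele and 17 to 23.1% in EtOH, although its own level passed no test. The summed level had medians of 516 RPKM in EtOH, 458 with 4-HT without the allele and 377 with it. Shares of one sum move together, so these are descriptions and carry no test. The log2 ratio of Fos, Fosl1 and Fosl2 to Jun, Junb and Jund had a median of −2.64 in EtOH, −2.76 with 4-HT without the Braf allele and −2.07 with it, and the last ranged from −2.32 to −1.93 against −2.85 to −2.69 without it.

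**Figure D4:**
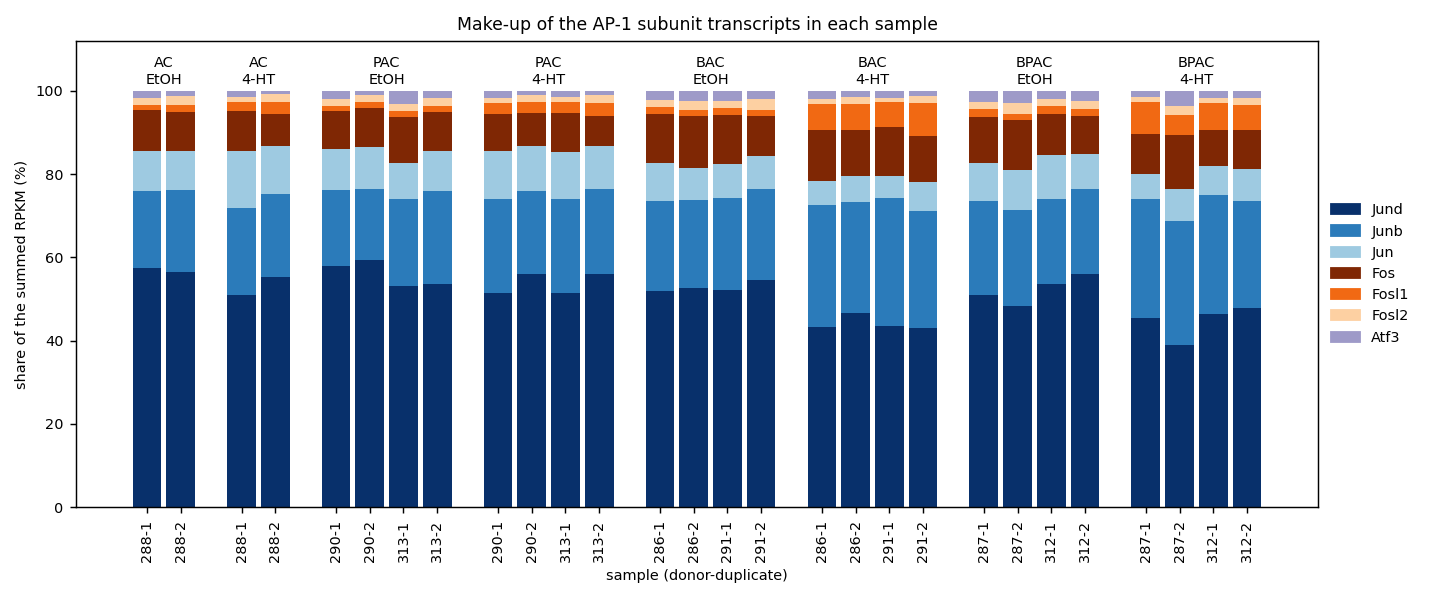
Each bar is 1 of the 28 samples and shows the percentage of the summed RPKM of the 7 genes held by each, with Jun members in blue, Fos members in brown and orange and Atf3 in violet. In the 4-HT bars of BAC and BPAC the Fosl1 band covers 4.84 to 7.89% and the Jund band 39.0 to 47.8%.

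Within single samples the levels of Fosl1 and Jun also drew closer. The log2 ratio of Fosl1 to Jun per length was −2.87 to −2.27 in EtOH and −2.63 to −1.66 with 4-HT without the Braf allele. With the allele it was −0.70 to 0.40, with Fosl1 at or above Jun in 4 of 4 BAC samples and 1 of 4 BPAC samples. Fosl1 to Fosl2 moved from a median of −0.24 in EtOH to 0.78 and then 2.26.

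The duplicates differed in level. In EtOH, Jund stood at 447 to 553 CPM in duplicate 1 and 334 to 445 CPM in duplicate 2, the only subunit of the 7 that did not overlap, against 6.02% of all genes. In 4-HT 0 of the 7 did so, against 5.7% of all genes. Median EtOH levels of Fos were 157 and 97.9 CPM, and of Atf3 28.7 and 16.4 CPM, with overlap. Over the 14 EtOH samples the log2 levels of Fos and Junb had a Pearson r of 0.93, Junb and Atf3 0.92, and Jun and Jund 0.88, points that share library and duplicate.

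Across the 14 culture changes the strongest pairs were Fosl2 with Jund (r = 0.87) and Jun with Jund (r = 0.83), and Fosl1 with Jun had r = −0.71. These correlations describe changes whose points share scaling, and the genotypes form clusters in them. Among genes of at least 10 CPM, the change most like that of Jun was Itgb6, an epithelial integrin subunit (r = 0.96), and for Fosl1 it was Rps6ka4, a kinase of the MAP kinase cascade (r = 0.94). Hadha, an enzyme of mitochondrial fatty acid oxidation, came first for Fosl2 (r = 0.97), and Kifc3, a kinesin, for Jund (r = 0.95). Sprr2a3 (r = 0.94), Cfl1 (r = 0.88) and Sra1 (r = 0.91) came first for Fos, Junb and Atf3.

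Counts for the other lists stand beside the same shares of all genes that passed with 4-HT, 7.25%, 23.4%, 41.9% and 45.0% (AC, PAC, BAC, BPAC), and 6.61% for the Braf allele difference in change. Of the other leucine zipper partners, 11 of 13 listed were counted, and 1 rose and 5 fell in BAC, 2 rose and 4 fell in BPAC, 2 fell in PAC and none passed in AC. Atf4, the amino acid and ER stress factor, rose by 0.57 in BAC and 0.60 in BPAC (log2), and its Braf allele difference was 0.66 (edgeR, adjusted p = 0.00079). The median of the list was −0.24 in BAC, against −0.04 over all genes.

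Upstream of the subunits, 16 of 16 kinases and transcription factors were counted, with 1 up and 2 down in AC, 1 up and 3 down in PAC, 3 up and 3 down in BAC and 2 up and 3 down in BPAC. Elk3, an ETS factor that MAP kinases phosphorylate, rose by 0.64 in PAC, 1.63 in BAC and 1.60 for BPAC organoids, and its Braf allele difference was 1.13 (log2, edgeR, adjusted p = 0.000275). Mapk3, which encodes ERK1, fell in all 4 genotypes, with changes between −0.93 in BPAC and −0.61 in PAC (edgeR, adjusted p = 2.62e-08 and 5.9e-05).

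Of 15 other immediate early genes 13 were counted. In AC 1 rose and 1 fell, in PAC 3 rose and 4 fell, and in each of BAC and BPAC 3 rose and 6 fell, the last with medians of −0.38 and −0.48 (log2). Myc, a proliferation factor and Wnt target, rose in all 4 genotypes, by 1.25 in AC and 1.84 in BAC (edgeR, adjusted p = 0.00219 and 1.86e-08). None of the 13 had a change that differed with the Braf allele. Under 4-HT, 2 of the 13 were lower in level with the allele, where 30.2% of all genes passed.

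Only 10 of 16 listed AP-1 target genes were counted, fewer than 80%, and of these 10, none passed in AC, 3 rose and 1 fell in PAC, 3 rose and 2 fell in BAC and 3 rose and 3 fell in BPAC. Under 4-HT, 1 of the 10 was higher and 5 were lower with the Braf allele, where 30.2% of all genes passed. Itgb6 fell in BAC and BPAC (−0.87 and −1.04, log2), and its change differed by −0.97 between genotypes with and without Braf V600E (edgeR, adjusted p = 6.06e-05). Cd44, a cell surface receptor, rose by 0.88 in PAC, 1.36 in BAC and 1.35 in BPAC (edgeR, adjusted p = 0.00213, 9.16e-06 and 8.37e-06), had a value of 0.90 in AC (adjusted p = 0.0398), and its Braf allele difference of 0.47 did not pass (adjusted p = 0.19). Of 7 counted genes that act in the turnover of Jun and Fos, 1 (Det1) rose in BAC and in BPAC, by 0.53 and 0.52 (edgeR, adjusted p = 0.00019 and 0.000203). Det1 had values of 0.53 in AC and 0.36 in PAC (edgeR, adjusted p = 0.0173 and 0.0115). Of these 7 genes, 1 fell in PAC and 1 fell in BAC. None of the 7 had a change that differed with the Braf allele, and under 4-HT 1 was higher in level with it.

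Other measures moved with 4-HT beside these genes. Krt20, a marker of differentiated colonocytes, fell in all 4 genotypes, with changes of −1.79, −1.84, −1.74 and −2.14 (log2) in AC, PAC, BAC and BPAC, with a difference of −0.12 by Braf allele (edgeR, adjusted p = 0.835), and fewer cells of a type and less RNA per cell cannot be told apart here. Of the 9 epithelial markers 1, 3, 5 and 5 fell in AC, PAC, BAC and BPAC, and none had a change that differed with the Braf allele. Under 4-HT, 1 of the 9 was lower in level with the allele, where 30.2% of all genes passed. The 7 heat shock genes listed as signs of handling stress summed to 1390 to 1694 CPM in EtOH, 1705 to 1992 CPM with 4-HT without the Braf allele and 2034 to 2427 CPM with 4-HT with the Braf allele, with 3 of 7 up in each of PAC, BAC and BPAC and none whose change differed with the allele. Their part in the subunit changes was not tested. Of the 5 markers of other cells 2 fell in BAC and in BPAC, and Pdgfrb, a stromal marker, changed by −2.80 in BAC (edgeR, adjusted p = 2.94e-05) from low levels (0.238 to 13.7 CPM).

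Atf3, Fosl1, Jun, Junb and Jund each overlap an annotated gene on the opposite strand. The strandedness of counting is not given in the sources used here, so the values of these subunits carry that limit. Only the overlapping genes of Fosl1 and Junb were among the genes counted. Ccdc85b overlaps Fosl1 and changed by −0.35 in BAC and −0.29 in BPAC (log2, edgeR, adjusted p = 0.0172 and 0.0436), opposite in sign to Fosl1. Prdx2 overlaps Junb and had a Braf allele difference of −0.24 (edgeR, adjusted p = 0.146). Fosl1 lies on chromosome 19 (5447547 to 5455946, plus strand, GRCm38), Junb on chromosome 8 (84974484 to 84978718, minus) and Jun on chromosome 4 (95049034 to 95052222, minus).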

How the data were processed

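RNA of 28 colon organoid samples was sequenced in bulk. The authors deposited the raw read count of each gene, not normalized, for 13519 genes. Per the labels and the submitters' processing notes, reads were trimmed with Trimmomatic 0.39 and aligned with STAR 2.5.2b to GRCm38. The counting program and its strandedness are not given in the sources used here. Counts were used as deposited, with no filter, and no column was left out.

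Counts were scaled with TMM and tested with edgeR 4.0.16 (R 4.3.3) by the quasi-likelihood test over 8 groups and all 28 samples. P values were corrected over all 13519 genes after Benjamini and Hochberg, and the study's threshold of 0.01 was kept. Levels are CPM on the TMM-scaled total, and RPKM divides these by the union of exons in GENCODE M21. Culture changes are log2 CPM with a prior count of 2. The members and lists were chosen with earlier results of these data known. All 8 members were to be named, and of other lists the 3 genes with the largest Braf difference past the threshold and the 2 with the largest mean change. Errors given as SE come from the model. EtOH and 4-HT samples of 1 donor and duplicate come from 1 animal, and their deviations from group means correlated with r from 0.245 to 0.532 (mean 0.416, 12 cultures). Alternatives were limma-voom (limma 3.58.1), DESeq2 1.42.0, 2 other scalings, 2 filters, the culture block, summed donors, each genotype alone, another threshold, each duplicate alone or as a covariate, thinning to the smallest total, and each culture or donor left out. The block without both PAC duplicate 1 cultures was added after seeing the data. Figures were drawn with Python 3.11.15. The sources used here name no molecular identifiers, so intervals cover counting error and culture spread, not PCR copies. One gene that the rule for named genes selects is not reported here.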

Additional observations from a re-analysis of the deposited data

Results flagged for a closer look

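In 69 groups of 4 samples or cultures, 3 held a value that stood apart, where chance gives about 1 in 20 groups. In BPAC with EtOH, Jun stood at 122 CPM in culture Col312-2, against 166 to 171 CPM in the other 3. In BPAC, culture Col287-1 had the lowest Fos change, −0.88 (log2) against −0.47 to −0.43, and the highest Fosl1 change, 1.42 against 1.30 to 1.31.

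Between organoids that did and did not carry the Braf allele, the 4-HT changes of Fosl1 and Jun differed by 0.81 and −1.04 (log2) in edgeR's test of the difference itself.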

How the results depend on the processing

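Counts of subunits past the threshold changed by over 1.5 times in some alternatives. The shares of all genes that passed are given for the main fit only, so the counts below have no background beside them. With culture as a replicate block, that count was 1 in AC, 2 in PAC and 4 for the Braf difference in change, and 1, 1 and 4 with the block and without both PAC duplicate 1 cultures, a fit chosen after seeing the data. With the counts of each donor summed it was 1 in PAC, and AC then has 1 sample per treatment. With duplicate number as a covariate it was 3 for the Braf difference. In PAC, duplicate 1 alone gave 2, and duplicate 2 alone and the fit without both PAC duplicate 1 cultures each gave 0. Duplicate 2 alone gave 2 in BAC and 0 for the Braf difference, and library size alone, a mean of at least 10 CPM and the fit without both PAC duplicate 1 cultures each gave 1 for it. The block changed no other count by over 1.5 times, and at the level of genes it added only the calls given beside Fosl1, Fos, Atf3, Fosl2 and Jund.

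Leaving out each culture or donor gave counts of 0 in AC, 0 to 2 in PAC, 2 to 4 in BAC, 2 to 4 in BPAC, 1 to 2 for the Braf difference in change, 3 to 4 for the 4-HT level with the Braf allele, and 0 for the other comparisons. With donor Col288 left out AC has no value. Leave-outs gave Junb changes of −0.21 to 0.19 in PAC and −0.26 to 0.024 in BPAC, Braf differences in change of −0.084 to 0.13 for Junb, −0.37 to 0.14 for Atf3 and −0.17 to 0.017 for Fos, and a 4-HT level difference of −0.027 to 0.25 for Fos.

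Library size alone moved the median change of all genes from between −0.04 and 0.01 to between 0.13 and 0.23 (log2), and the share of calls that were higher from 41.4% to 83.3% in AC, 47.7% to 82.1% in PAC, 48.6% to 65.3% in BAC, 48.9% to 68.0% in BPAC and 46.2% to 34.6% for the Braf difference. Under it Junb changed by 0.16 in AC, 0.20 in PAC and 0.083 in BPAC and Jund by 0.011 in PAC, and the Junb Braf difference was −0.011, and −0.022 with a mean of at least 10 CPM. The Fos Braf difference was 0.043 in duplicate 2 alone, and in duplicate 1 alone the 4-HT level differences of Fos and Atf3 were −0.084 and −0.044. None of these passed. The median log2 ratio of Fos to Jun members without the Braf allele under 4-HT was −2.65 with the longest transcript. The cause of these changes was not tested. Fosl1, at 228 to 2513 counts per sample, is among the thinnest counted of the 7.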
